A study of Mus musculus with 5 samples.

Results

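The genes described here are those of potassium channels and their partner subunits: every probe of the array, control probes aside, whose gene name begins with Kcn. The rule found 137 probes of 55681, which stand for 95 gene names among 36409 genes and unnamed features. By role they comprise 30 pore-forming subunits of voltage-gated channels, 10 silent modifier subunits, 16 accessory subunits, 15 inward rectifiers, 14 channels with paired pore domains, 8 channels opened by calcium or sodium (the sperm channel gene Kcnu1, of the same family, is counted with these) and 2 genes that encode no channel subunit.

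RNA was measured on 5 Agilent arrays of 1 colour, hybridised with RNA of cells sorted from the muscle of C57BL/6 mice of the DMD/MDX genotype, which lack dystrophin and model Duchenne muscular dystrophy. Every group came from this genotype, so no healthy muscle was compared. The 3 groups were Sca1+ interstitial cells from mice given trichostatin A (TSA) at 0.6 mg/kg by intraperitoneal injection for 45 days (2 arrays), muscle stem cells (MuSC) from mice given vehicle for 45 days (1 array), and Sca1+ interstitial cells from mice given vehicle for 45 days (2 arrays). TSA inhibits histone deacetylases, enzymes that remove acetyl groups from histones. Both populations were sorted as positive for CD34 and a7-integrin and differ in the surface protein Sca1. The labels give no age, and do not say whether the arrays of a group came from separate animals or from pooled ones, so a p-value here reflects only how far these arrays spread.

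Potassium channels let potassium leave the cell and so set the resting potential and end electrical signals. Voltage-gated channels open on depolarisation, inward rectifiers and channels with paired pore domains hold the resting potential, and calcium-activated channels tie it to intracellular calcium. In smooth muscle the large-conductance calcium-activated channel (BK) opposes contraction, and in human myoblasts a hyperpolarisation carried by inward rectifiers precedes fusion.

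In Sca1+ cells with TSA, 13 of 63 tested potassium channel genes were higher than with vehicle (2.71% of all tested genes were) and none was lower at the threshold (0.268% of all). Leaving out either TSA array left no call. Among them were the voltage-gated pore genes Kcna1, Kcna5 and Kcnh2, the accessory genes Kcnmb1 and Kcnab1, the inward rectifier genes Kcnj12, Kcnj10, Kcnj13 and Kcnj8, the resting-channel genes Kcnk3 and Kcnk1, and the sodium-activated channel gene Kcnt1. In MuSC, 22 of the 63 were higher than in Sca1+ cells with vehicle (10.5% of all tested genes were) and 7 were lower, a share of 11.1% that is near the 11.7% of all.

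RefSeq promoter sequences (GRCm38.p6, the 250 bases before the annotated start) matched 70 of the 95 names, and 9 of the 13 genes higher with TSA. Kcna1, Kcnk3 and Kcnt1 are among those with no entry. The sequences of 4 of these genes are printed 5′ to 3′ on the gene's strand because their genes rose with TSA and because they differ in the motifs they hold. Capitals mark the E-box CANNTG, which is bound by myogenic and other helix-loop-helix factors, the GC box GGGCGG and TATAAA, each searched on both strands. The windows are chr11:33962763-33963012 (+) for Kcnmb1, chr11:61065554-61065803 (+) for Kcnj12, chr1:87394730-87394979 (−) for Kcnj13 and chr1:172340960-172341209 (+) for Kcnj10.
Kcnmb1: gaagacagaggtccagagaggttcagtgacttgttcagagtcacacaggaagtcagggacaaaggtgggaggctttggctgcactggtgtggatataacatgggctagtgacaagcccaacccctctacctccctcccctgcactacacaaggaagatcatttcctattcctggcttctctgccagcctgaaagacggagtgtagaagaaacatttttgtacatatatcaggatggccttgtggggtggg
Kcnj12: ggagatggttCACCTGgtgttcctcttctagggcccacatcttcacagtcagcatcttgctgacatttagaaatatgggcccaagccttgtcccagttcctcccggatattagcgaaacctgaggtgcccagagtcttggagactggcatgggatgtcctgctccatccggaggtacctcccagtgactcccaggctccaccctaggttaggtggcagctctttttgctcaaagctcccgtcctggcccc
Kcnj13: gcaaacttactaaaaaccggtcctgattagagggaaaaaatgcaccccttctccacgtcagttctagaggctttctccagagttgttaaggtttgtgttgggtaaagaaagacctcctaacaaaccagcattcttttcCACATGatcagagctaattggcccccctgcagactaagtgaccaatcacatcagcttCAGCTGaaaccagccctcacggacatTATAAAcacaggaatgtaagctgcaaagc
Kcnj10: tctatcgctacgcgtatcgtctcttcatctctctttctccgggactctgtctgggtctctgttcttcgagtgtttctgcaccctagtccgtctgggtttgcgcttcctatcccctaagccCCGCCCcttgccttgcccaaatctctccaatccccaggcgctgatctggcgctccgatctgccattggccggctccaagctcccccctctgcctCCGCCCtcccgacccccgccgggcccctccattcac

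No marked motif is in all 4 windows, which follows from how the windows were chosen. The Kcnmb1 window holds none of the 3, the Kcnj12 window holds an E-box, the Kcnj13 window holds E-boxes and TATAAA, and the Kcnj10 window holds GC boxes. Over the 11 promoters of the 9 matched genes, the E-box was found in 8 (72.7%), against 66.2% of all 32851 promoters of the same length. The GC box was found in 3 (27.3%), against 32.7% of all, and TATAAA in 1 (9.09%), against 12.4% of all. The CArG box of serum response factor, searched by its name, was in 0 of the 11 and in 0 of the 95 promoters of the 70 matched Kcn genes, against 482 (1.47%) of all promoters. These shares describe letters in a short window and not bound sites.

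All levels below are log2 of the processed signal minus the 75th percentile of the same array, so a level of 0 is the signal of a probe at that percentile, and levels of different probes are not compared. A probe was called well above background by the scanner's own flag. A gene was tested where its probe had that flag on every array of at least 1 group. Of the 95 genes, 63 were tested and 32 were not, and 26 of these 32 were not well above background on any array. By group, 58 genes were well above background on both TSA arrays, 56 on the MuSC array and 48 on both vehicle arrays, and 43 in all groups.

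Inward rectifier genes were detected in unequal numbers: 8 of 15 with TSA and 9 in MuSC, against 4 in Sca1+ cells with vehicle. Silent modifier genes were detected for 4 of 10 with TSA and 2 in MuSC, against 4 with vehicle. The voltage-gated pore genes were at 20 of 30 with TSA and 19 in MuSC, against 17 with vehicle. Resting channels with paired pore domains stood at 10 of 14 with TSA and 9 in MuSC, against 9 with vehicle. Over all spots the flag was set for 64.7% and 66.9% on the TSA arrays. It was set for 61.3% on the MuSC array, and for 62.1% and 58.5% on the vehicle arrays. A count in MuSC asks for the flag on 1 array, and a count in a Sca1+ group on 2. These counts rest on a flag and were not tested.

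**Figure D1:**
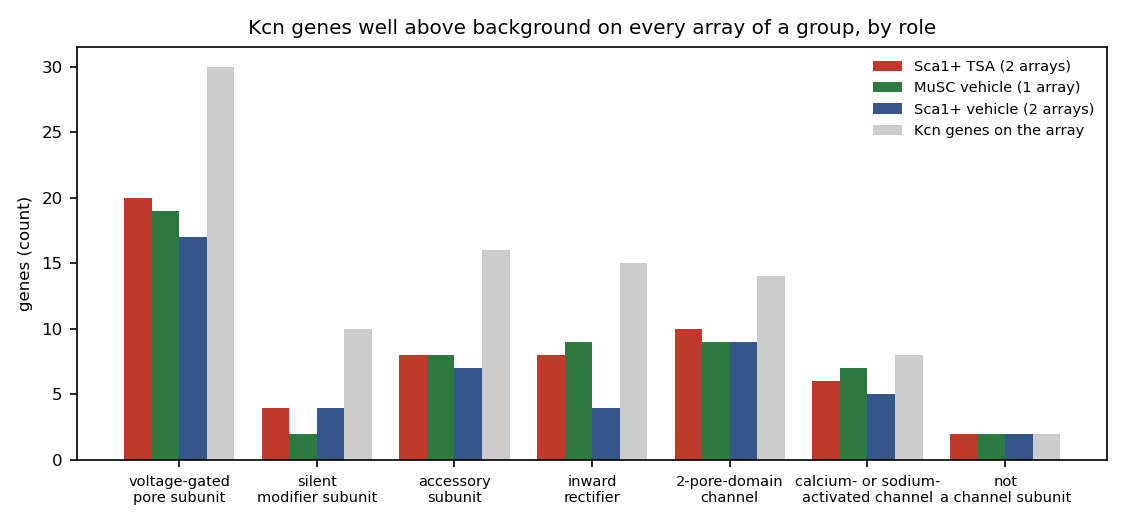
Number of Kcn genes (vertical axis, count) whose probe was well above background on every array of Sca1+ cells with TSA, MuSC with vehicle and Sca1+ cells with vehicle, by role. Grey bars give the genes of each role on the array. The inward rectifiers show 8, 9 and 4 of 15 in that order.

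Through 1 group alone passed 7 genes: Kcnh8 and Kcnj5 through TSA, and Kcnab3, Kcnh5, Kcnj2, Kcnj3 and Kcnn2 through MuSC. Another 8 were well above background on every TSA array and the MuSC array but not on both vehicle arrays (Kcna2, Kcnh2, Kcnj10, Kcnj11, Kcnj13, Kcnk1, Kcnmb1 and Kcnt1). A further 5 were so in both Sca1+ groups but not in MuSC (Kcnc2, Kcng1, Kcng4, Kcnip4 and Kcnk2). Such genes entered the test through the groups where the flag was set, which favours genes high there, so the counts over tested genes describe the 63 and not all 95. Among the genes that did not pass were the cardiac accessory gene Kcne1, the neuronal pore genes Kcnq3 and Kcnq5, the renal rectifier gene Kcnj1 and the silent subunit gene of photoreceptors Kcnv2. Members that were never well above background had a median of −6.72 and −7.55 on the TSA arrays, −6.49 on the MuSC array, and −6.48 and −6.49 on the vehicle arrays, so this scale places background lower on the TSA arrays.

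Ly6a, which encodes Sca1, stood at 5.89 and 5.71 on the TSA arrays and at 1.46 in MuSC, against 6.46 and 6.59 on the vehicle arrays. Between 58.5% and 66.9% of an array's spots were well above background and no spot was saturated, and with 5 arrays the number of arrays limits the precision.

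TSA against vehicle in Sca1+ cells asks which channel genes differed between cells of mice given TSA and cells of mice given vehicle. Among the 63 tested genes 13 (20.6%) were higher at an adjusted p under 0.05 (limma with Benjamini-Hochberg adjustment over 26090 genes), where 2.71% of all tested genes were (2.98% in either direction). None was lower, where 0.268% of all were, and 8 were lower and 21 higher at an unadjusted p under 0.05. Of the 13, 4 had vehicle arrays at background and were at least 3.41-fold to at least 11.7-fold higher, and the others differed by 1.60 to 4.39 on the log2 scale. The adjusted p of the 13 lay between 0.00437 and 0.0473. The other 50 lay between −1.07 and 2.36. The median over the 63 was 0.02, against −0.13 over all tested genes. In sorted bulk RNA, fewer cells of a type and less RNA per cell cannot be told apart.

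The number of calls rests on few arrays. It was 7 without vehicle array 1 and 6 without vehicle array 2. Without TSA array 1 it was 0, with 32 at an unadjusted p under 0.05, and without TSA array 2 it was 0, with 25, and no gene of the whole array passed in either fit. With normexp background correction, 11 Kcn genes were higher and 18 lower, against 13 and 0 as reported, and 8 of the 13 kept their call. Over all genes that correction gave 1252 higher and 5868 lower, against 708 and 70 as reported. That correction moved the median of all genes to −0.25. Without the filter on dim probes 5 of the 13 kept their call.

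**Figure D2:**
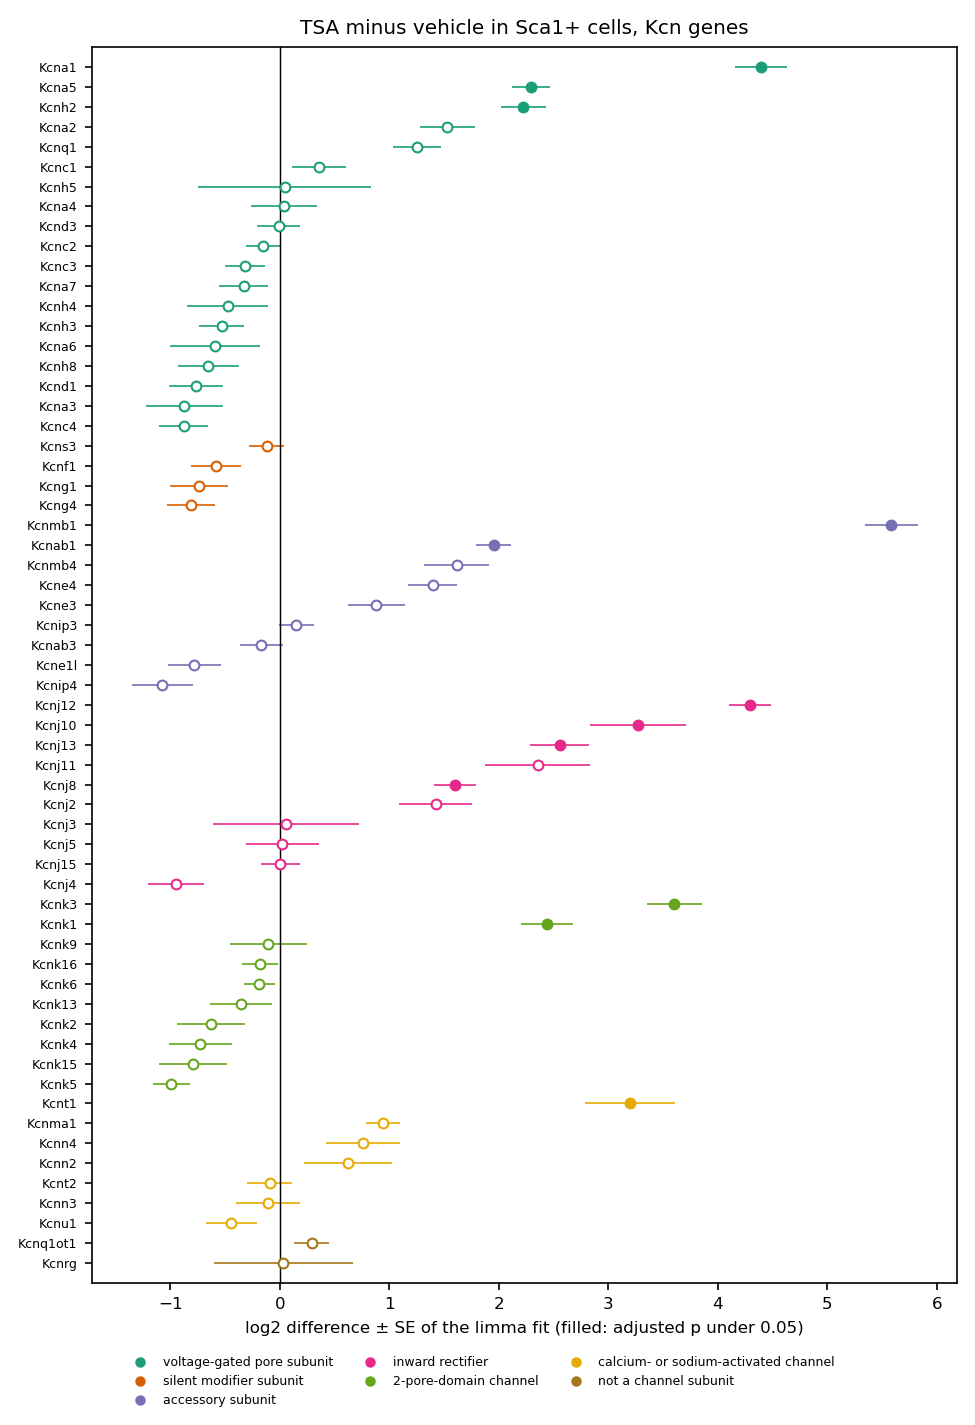
Difference of TSA minus vehicle in Sca1+ cells (horizontal axis, log2) with the standard error of the limma fit for 61 of the 63 tested Kcn genes, coloured by role. Filled points passed an adjusted p of 0.05. The 12 filled points lie between 1.60 and 5.59, the last being Kcnmb1 against a background level, and the 49 open ones between −1.07 and 2.36.

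Of the voltage-gated pore genes 4 of 21 tested rose with TSA and none fell at the threshold (2.71% and 0.268% of all tested genes). No role was tested as a set. Kcna1, which encodes a fast delayed rectifier of axons, stood at 1.51 and 1.58 on the TSA arrays, against −2.57 and −3.13 on the vehicle arrays. Its groups lay far apart, by 4.39 ± 0.24 (SE, 2 arrays each) or 21.0-fold, with an adjusted p of 0.00588 in limma. The probe lies at chr6:126586524-126586583 in mm9; its exon was not looked up. Within slides the difference was 4.08 on slide 1 and 4.71 on slide 2.

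Kcna5, a delayed rectifier gene of heart and vascular smooth muscle, had levels of 0.91 and 1.07 with TSA, against −1.42 and −1.19 with vehicle. Both TSA arrays were above both vehicle arrays, and the difference was 2.29 ± 0.17 (adjusted p 0.012, limma). A second Kcna5 probe differed by 0.34 and was not called, so the probes of this gene disagree in size.

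Kcnh2, which encodes the repolarising channel hERG of the heart, stood at −2.43 and −2.53 on the TSA arrays, against −4.49 and −4.92 on the vehicle arrays. The vehicle arrays were not well above background, so the change is given as at least 3.93-fold higher with TSA (adjusted p 0.0198, limma). For such a bound, each dim array's own level, or its lowest level well above background where that is higher, was averaged and set against the brighter group's mean. An adjusted p printed with a bound is that of the fitted difference, dim levels included, and does not test the bound. The bounds hold for this scale and background handling only.

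Other voltage-gated pore genes did not pass. Kcna2, a partner of Kcna1 in axonal channels, had −2.95 and −3.09 with TSA, against −4.84 and −4.25 with vehicle, of which 1 array was well above background, and an adjusted p of 0.0689 in limma. Kcnq1, the pore of a slow cardiac and epithelial current, had −0.96 and −0.58 with TSA, against −1.87 and −2.18 with vehicle, a difference of 1.26 ± 0.22 and an adjusted p of 0.0771. Kcna3, a channel gene of lymphocytes and macrophages, had −3.95 and −3.90 with TSA, against −3.52 and −2.58 with vehicle, and an adjusted p of 0.238. In the Kcnc subfamily of fast-spiking neurones the largest difference was that of Kcnc4, −0.88 ± 0.22 with an adjusted p of 0.138, and in the Kcnd subfamily that of Kcnd1, −0.76 ± 0.25 with an adjusted p of 0.189.

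Among the 4 silent modifier genes tested, none passed in either direction with TSA, where 2.98% of all tested genes did. At an unadjusted p under 0.05, 2 were lower. These subunits form no channel alone and alter the channels of other voltage-gated pore subunits. Kcng4, with the largest difference of this role, stood at −4.24 and −4.73 with TSA, against −3.63 and −3.71 with vehicle. The difference was −0.81 ± 0.22 with an adjusted p of 0.15 in limma. Kcnf1 differed by −0.58 ± 0.23 and Kcns3 by −0.12 ± 0.16, and neither passed.

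Accessory subunits alter gating or surface delivery, and 2 of the 9 tested rose with TSA (2.71% of all tested genes did). Kcnmb1, the beta subunit that makes the BK channel of smooth muscle sensitive to calcium, rose as well. It stood at −0.87 and −1.07 on the TSA arrays, against −6.82 and −6.29 on the vehicle arrays. Neither vehicle array was well above background, so the change on this scale was at least 11.7-fold higher with TSA. The adjusted p of the fitted difference was 0.00437 in limma. Over the alternatives that difference was as low as 1.32 on the log2 scale. The Kcnmb1 probe lies at chr11:33870457-33870516 in mm9, and the gene's promoter window, printed above, holds none of the marked motifs.

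Kcnab1, a cytoplasmic beta subunit that inactivates channels of the Kcna subfamily, stood at 1.51 and 1.64 with TSA, against −0.46 and −0.30 with vehicle. The difference was 1.96 ± 0.16 (adjusted p 0.0145, limma), and the groups did not overlap.

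Some accessory genes missed the threshold with all TSA levels above all vehicle levels. Kcnmb4, the beta subunit of neuronal BK channels, had −1.78 and −1.33 with TSA, against −2.85 and −3.48 with vehicle (adjusted p 0.086, limma). A second Kcnmb4 probe differed by 0.23 with TSA, with levels that overlapped between the groups, and was not called. Kcne4, which inhibits channels of the Kcna and Kcnq subfamilies, had −0.26 and −0.31 with TSA, against −1.43 and −1.93 with vehicle (adjusted p 0.0671). Kcne3, which holds the Kcnq1 channel open in gut epithelium, differed by 0.88 ± 0.26 with an adjusted p of 0.169, while a second Kcne3 probe differed by 1.93 with an adjusted p of 0.0286 in the fit of each probe. Kcnip4, a calcium sensor of Kcnd channels, had the lowest difference among the tested members, −1.07 ± 0.28 with an adjusted p of 0.144. Kcnip3, a sensor that also acts as a repressor of transcription, had 0.59 and 0.58 with TSA, against 0.53 and 0.33 with vehicle.

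Inward rectifiers carry current best near the resting potential, and 4 of the 10 tested rose with TSA (2.71% of all tested genes did). Kcnj12, a strong rectifier of heart and skeletal muscle, stood at 0.01 and 0.38 on the TSA arrays, against −4.08 and −4.11 on the vehicle arrays. The replicates of vehicle lay within a few hundredths, and the difference was 4.29 ± 0.19 or 19.6-fold, with an adjusted p of 0.00451 in limma. Its probe lies at chr11:60884556-60884615 in mm9.

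Kcnj10, a glial rectifier gene, stood at −2.80 and −2.70 with TSA, against −5.41 and −6.63 with vehicle, where neither array was well above background. It was at least 3.41-fold higher with TSA, with the highest adjusted p of the 13, 0.0473 in limma. The call was lost under 6 of 12 alternatives, among them quantile normalization.

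Kcnj13, a weak rectifier gene of epithelia, stood at −1.71 and −1.86 with TSA, against −4.67 and −4.02 with vehicle. The difference was 2.56 ± 0.27 (adjusted p 0.0267, limma), with 1 of the 2 vehicle arrays well above background, and a second Kcnj13 probe, not well above background with vehicle, was at least 7.41-fold higher.

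Kcnj8 encodes the pore of the KATP channel of vascular smooth muscle and pericytes, which closes as ATP rises. It stood at −1.37 and −1.14 with TSA, against −2.70 and −3.01 with vehicle, a difference of 1.60 ± 0.19 (adjusted p 0.0366, limma) that was the smallest of the 13.

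Kcnj11, the KATP pore gene of skeletal muscle, heart and pancreatic beta cells, had −3.45 and −3.61 with TSA, against −5.23 and −6.55 with vehicle. The bound was at least 1.98-fold with an adjusted p of 0.0989 in limma, and for a second Kcnj11 probe no Sca1+ array was well above background. Kcnj2, the classical strong rectifier of muscle, had −5.08 and −4.44 with TSA, where 1 array was well above background, against −5.88 and −6.49 with vehicle (adjusted p 0.123).

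Of the channels with paired pore domains, which carry background leak, 2 of 10 tested rose with TSA (2.71% of all tested genes did). Kcnk3, an acid-sensitive leak channel gene of pulmonary arterial smooth muscle, stood at −0.22 and −0.45 on the TSA arrays, against −3.66 and −4.22 on the vehicle arrays. The rise was 12.1-fold (SE 0.25 on the log2 scale), with an adjusted p of 0.0101 in limma, and the groups lay far apart. Its probe lies at chr5:30927090-30927149 in mm9.

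Kcnk1, a weak leak channel gene, stood at −2.15 and −1.86 with TSA, against −4.21 and −4.69 with vehicle, of which 1 array was well above background. The difference was 2.44 ± 0.24 (adjusted p 0.0218, limma). Kcnk5, an acid-sensitive channel gene of epithelia and lymphocytes, had −3.22 and −2.99 with TSA, against −2.17 and −2.05 with vehicle. The difference was −0.99 ± 0.17 with an adjusted p of 0.0743. Kcnk2, a channel gene opened by stretch, differed by −0.63 ± 0.31 with an adjusted p of 0.302.

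Among the calcium- or sodium-activated channels 1 of 7 tested rose with TSA (2.71% of all tested genes did). Kcnt1, the sodium-activated channel gene of neurones, stood at −1.95 and −2.27 with TSA, against −4.76 and −5.85 with vehicle, where neither array was well above background. The rise with TSA was at least 5.32-fold, with an adjusted p of 0.0418 in limma. Kcnma1, the BK pore gene, had 0.07 and 0.25 with TSA, against −0.76 and −0.80 with vehicle, a difference of 0.94 ± 0.16 that did not pass (adjusted p 0.0708). The other Kcnma1 probes differed by 0.16 and 1.23 and were not called. Of the small-conductance channels Kcnn3 had −1.46 and −1.15 with TSA, against −1.53 and −0.85 with vehicle, and Kcnn2 was not well above background in either group. Kcnn4, the intermediate-conductance channel gene of red cells and lymphocytes, differed by 0.76 ± 0.34 with an adjusted p of 0.265. The non-coding Kcnq1ot1, transcribed antisense to Kcnq1 in an imprinted domain, had −1.91 and −1.98 with TSA, against −2.35 and −2.14 with vehicle (adjusted p 0.338).

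Dim members of the 13 depended most on background handling: Kcnh2, Kcnj10, Kcnj13, Kcnk1 and Kcnt1 lost their call under normexp, with differences between 0.19 and 0.48. Kcna1, Kcnj12, Kcnk3 and Kcnmb1 kept theirs under 10 of 12 alternatives, all but those that left out a TSA array. Calls with TSA were lost under 6 of 12 for Kcnh2, Kcnj10 and Kcnk1. They were lost under 5 of 12 for Kcnab1, Kcnj8, Kcnj13 and Kcnt1, and under 4 of 12 for Kcna5. The 12 are not all separate fits, as described with the processing. Within slides all 13 were higher with TSA, by at least 1.33 on slide 1 and by at least 1.87 on slide 2. They were called on these same arrays, with every TSA level above every vehicle level, so these signs were fixed and add no support.

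**Figure D3:**
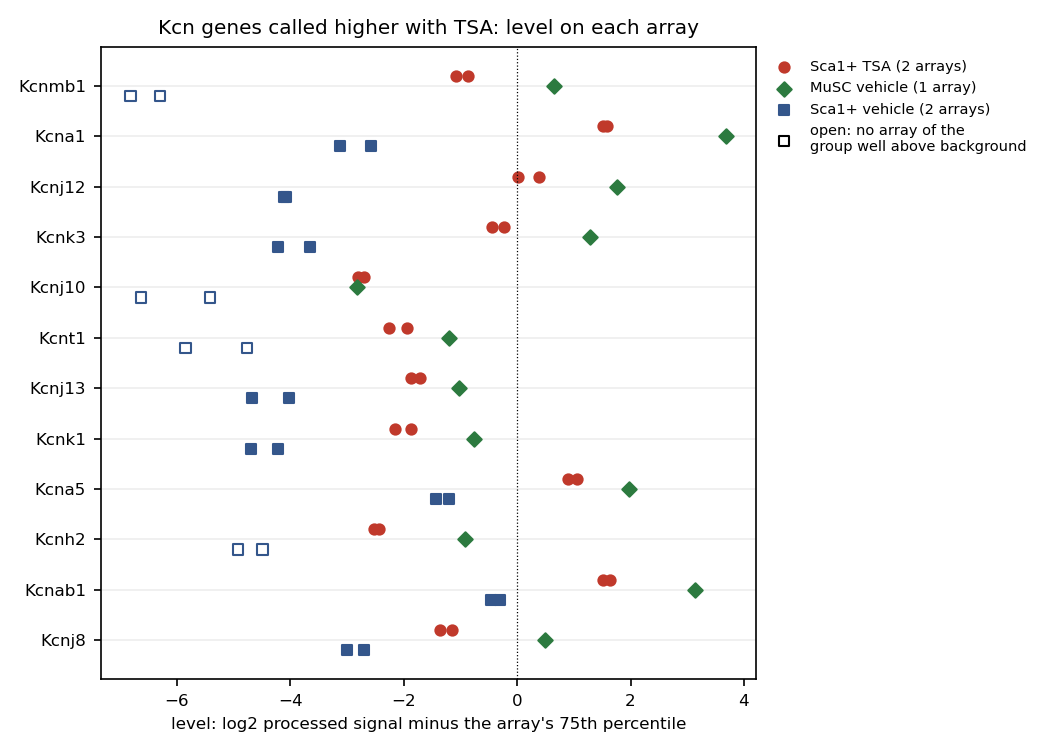
Level on each array (horizontal axis, log2 of the processed signal minus the array's 75th percentile) of 12 of the 13 Kcn genes called higher with TSA, ordered by difference. Circles are Sca1+ cells with TSA, diamonds MuSC with vehicle and squares Sca1+ cells with vehicle, and open symbols mark groups with no array well above background. TSA levels lie between those of MuSC and vehicle for 11 of the 12, and for Kcnj10 they lie slightly above MuSC. TSA was not tested against MuSC.

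Cell type markers moved in the same comparison, where 2.71% of all tested genes were higher and 0.268% lower. Of 12 smooth muscle and pericyte markers 9 were higher with TSA, among them Myh11 and Acta2, and their summed linear level was 595 and 643 on the TSA arrays and 1679 in MuSC, against 78.9 and 85.4 on the vehicle arrays. Lmod1 and Myocd of this list were not well above background with vehicle. Of 10 satellite cell and myoblast markers 8 were higher, with sums of 45.3 and 47.9 with TSA and 303 in MuSC, against 12.8 and 12.5 with vehicle, where Myf5 and Calcr were not well above background. Of 10 sarcomere markers 7 were higher, with sums of 29.7 and 34.6 with TSA and 151 in MuSC, against 3.97 and 3.81 with vehicle, where Ttn and Mylpf were not well above background. Of 8 markers of fibroadipogenic progenitors 2 were lower, with sums of 2176 and 2471 with TSA and 419 in MuSC, against 3809 and 6115 with vehicle. At an unadjusted p under 0.05 in limma 6 of these 8 were lower and 0 higher, where 6047 of all 26090 tested genes passed.

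Further lists were higher with TSA for 5 of 9 Schwann cell markers, 5 of 6 mast cell markers and 3 of 4 tested red cell markers. They were so for 1 of 8 endothelial markers, 1 of 4 tested lymphocyte markers and 0 of 6 macrophage markers. At an unadjusted p under 0.05 in limma, 6 endothelial markers were higher and 0 lower. Of the macrophage markers 2 were higher and 1 lower at that p. Schwann cell sums were 53.7 and 61.4 with TSA and 119 in MuSC, against 38.2 and 44.9 with vehicle. Mast cell sums were 32.4 and 29.8 with TSA and 1.27 in MuSC, against 1.83 and 2.17 with vehicle, where Cma1 and Fcer1a were not well above background. Red cell sums were 602 and 627 with TSA and 15.6 in MuSC, against 39.3 and 41.1 with vehicle. Of the 3 genes of the gate, Itga7, which encodes a7-integrin and also belongs to the satellite cell list, was higher, at 4.53 and 4.59 with TSA, against 1.35 and 1.09 with vehicle. The part of these cell types in the channel differences was not tested.

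MuSC against Sca1+ cells, both with vehicle, asks which channel genes differ between the populations without treatment. Among the 63 tested genes 22 (34.9%) were higher in MuSC at an adjusted p under 0.05 in limma, where 10.5% of 26087 tested genes were. Another 7 (11.1%) were lower, where 11.7% of all were (22.2% in either direction), so the lower share was near the background. The median was 0.09 over the 63, against −0.04 over all. MuSC had 1 array, assumed to vary like the other groups, and the vehicle arrays of this comparison are the same as those set against TSA. On slide 1, which held the MuSC array, the 22 were higher by 1.15 or more and the 7 differed by −1.11 or less. The 22 and the 7 were called on these same arrays, so their signs on slide 1 were fixed and add no support. In the same comparison 11 of 12 smooth muscle and pericyte markers, 10 of 10 satellite cell markers and 10 of 10 sarcomere markers were higher in MuSC, and 8 of 8 markers of fibroadipogenic progenitors were lower. Of 9 Schwann cell markers 7 were higher and 0 lower, and of 8 endothelial markers 1 was higher and 5 lower. The mast cell, red cell, macrophage and lymphocyte lists had 0 higher and 1 or 2 lower each. Their part in the channel differences was not tested.

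**Figure D4:**
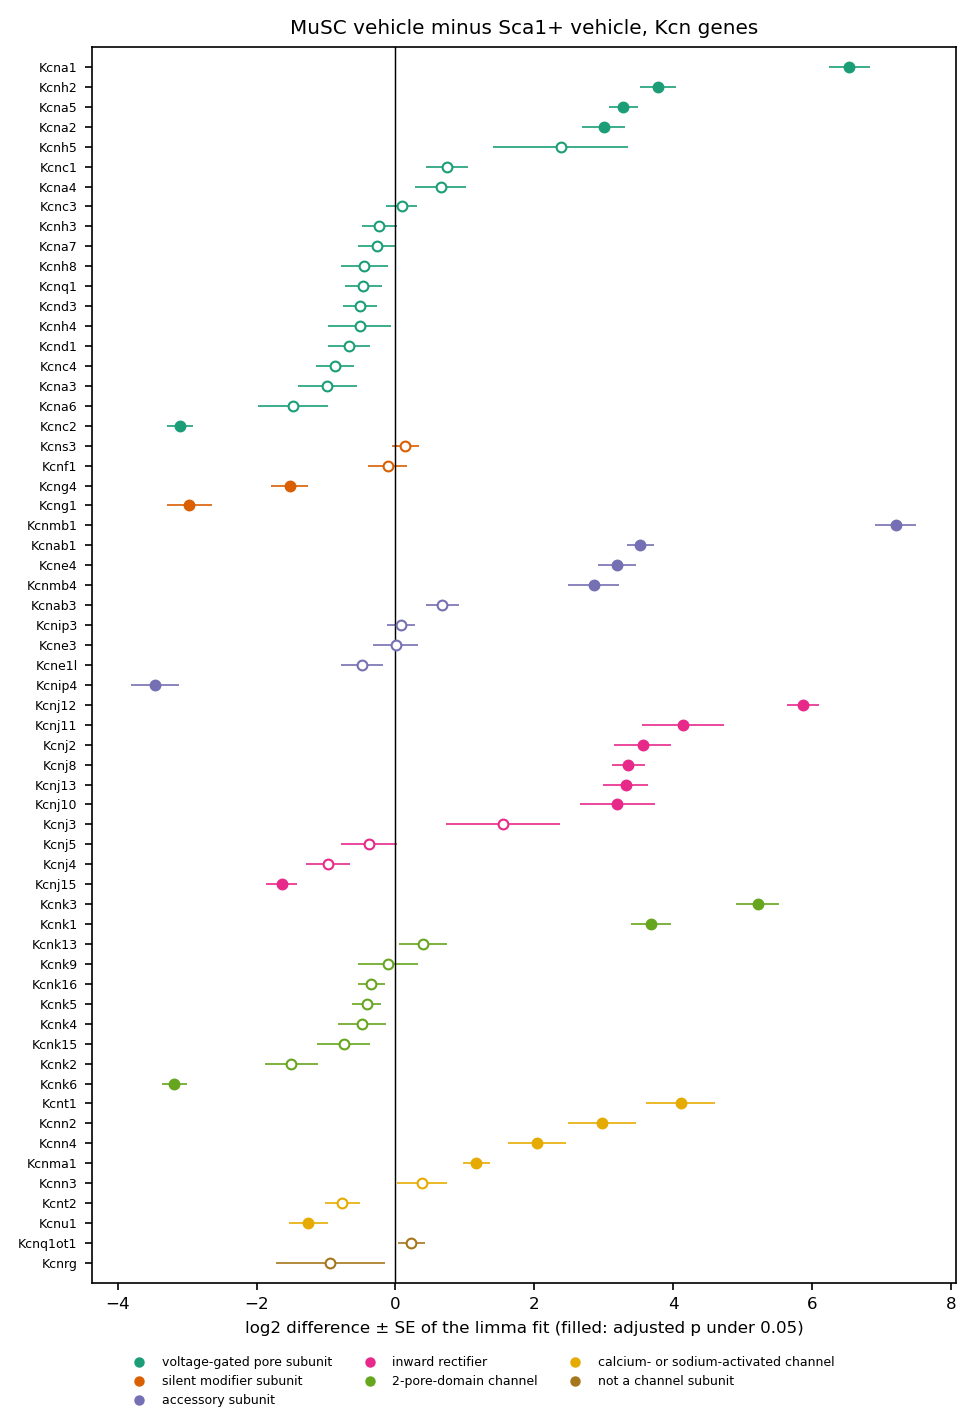
Difference of MuSC with vehicle minus Sca1+ cells with vehicle (horizontal axis, log2) with the standard error of the limma fit for 61 of the 63 tested Kcn genes, coloured by role. Filled points passed an adjusted p of 0.05. The 20 higher ones lie between 1.17 and 7.21 and the 7 lower ones between −3.46 and −1.25. The outermost of each, Kcnmb1 and Kcnip4, are set against a background level.

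Of the voltage-gated pore genes 6 were higher in MuSC and 1 lower, of 21 tested (10.5% and 11.7% of all tested genes). No role was tested as a set here either. Kcna1 stood at 3.69 in MuSC, against −2.57 and −3.13 in Sca1+ cells, a difference of 6.54 ± 0.29 with an adjusted p of 0.0015 in limma. Kcna2 at −1.55, Kcna5 at 1.97 and Kcnh2 at −0.92 in MuSC were each higher, 7.98-fold, 9.72-fold and at least 11.5-fold in that order. A second Kcna5 probe differed by 1.07 in MuSC, or 2.10-fold, and was not called.

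Kcnc2, a channel gene of fast-spiking neurones, was at −5.45 in MuSC, not well above background, against −2.26 and −2.44 in Sca1+ cells. It was at least 5.10-fold lower in MuSC (adjusted p 0.00223, limma). The silent modifiers Kcng1 and Kcng4 were lower too, of 4 tested (11.7% of all tested genes), at least 7.82-fold and at least 2.04-fold. Neither was well above background in MuSC. Kcng1 had −4.64 in MuSC, against −1.52 and −1.84 in Sca1+ cells.

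Of the accessory genes 4 were higher in MuSC and 1 lower, of 9 tested (10.5% and 11.7% of all tested genes). Kcnmb1 stood at 0.65 in MuSC, against −6.82 and −6.29 in Sca1+ cells, a rise of at least 36.1-fold (adjusted p 0.00149, limma). Kcnab1 at 3.14, Kcne4 at 1.51 and Kcnmb4 at −0.31 in MuSC were each higher, by 3.52, 3.19 and 2.86. A second Kcnmb4 probe differed by 1.39 in MuSC and passed in the fit of each probe. Kcnip4 at −6.75 in MuSC, against −3.21 and −3.37 in Sca1+ cells, was at least 2.65-fold lower (adjusted p 0.00641).

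Inward rectifiers gave 6 higher and 1 lower of 10 tested (10.5% and 11.7% of all tested genes), so the lower share is near the background. Kcnj12 stood at 1.77 in MuSC, against −4.08 and −4.11 in Sca1+ cells, a difference of 5.87 ± 0.23 (adjusted p 0.00149, limma). Kcnj2, well above background in no Sca1+ vehicle array, stood at −2.62 in MuSC, a rise of at least 3.72-fold (adjusted p 0.00883). It was tested only because that MuSC array passed the filter. Kcnj11 at −1.75 in MuSC was at least 6.84-fold higher (adjusted p 0.0143), and Kcnj10 at −2.83 at least 3.24-fold (adjusted p 0.0221). A second Kcnj11 probe differed by 1.90 in MuSC and was not called. Kcnj8 at 0.50 and Kcnj13 at −1.03 in MuSC were higher by 3.35 and 3.31. Kcnj15, a rectifier gene of kidney and epithelia, was at −3.84 in MuSC, against −2.25 and −2.15 in Sca1+ cells, and fell by 1.64 on the log2 scale (adjusted p 0.0125).

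Leak channels with paired pore domains gave 2 higher and 1 lower of 10 tested (10.5% and 11.7% of all tested genes). With 10 genes both counts are near the background. Kcnk3 stood at 1.28 in MuSC, against −3.66 and −4.22 in Sca1+ cells, a difference of 5.22 ± 0.31 (adjusted p 0.0021, limma). Kcnk1 at −0.77 in MuSC was higher by 3.68 ± 0.29. Kcnk6, a channel gene of vascular smooth muscle and endosomes, was at −1.55 in MuSC, against 1.63 and 1.63 in Sca1+ cells. It was 9.09-fold lower in MuSC (adjusted p 0.00188), with Sca1+ replicates that agree to 2 decimals.

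Calcium- or sodium-activated channels gave 4 higher and 1 lower of 7 tested (10.5% and 11.7% of all tested genes), so the lower share is near the background. Kcnma1 stood at 0.38 in MuSC, against −0.76 and −0.80 in Sca1+ cells (difference 1.17 ± 0.19, adjusted p 0.0208, limma). Kcnn4 at −0.45 in MuSC was higher by 2.04 ± 0.41 (adjusted p 0.0351), and Kcnn2 at −3.63, not well above background on any of the other arrays, at least 1.86-fold (adjusted p 0.021). Kcnn2 was tested only because its MuSC array passed the filter, and the call was lost under 5 of 12 alternatives, with an adjusted p of up to 0.651. The Kcnma1 call was lost under 6 of 12, with an adjusted p of up to 0.0743, and other Kcnma1 probes differed by 0.74 (not called) and 1.81 (called). Kcnt1 at −1.20 in MuSC was at least 9.99-fold higher (adjusted p 0.0102). Kcnu1, whose known place is the sperm tail, was at −4.12 in MuSC, against −3.01 and −2.72 in Sca1+ cells, and 2.38-fold lower (adjusted p 0.0456). That call was lost under 10 of 12 alternatives, with an adjusted p of up to 0.222. Calls in MuSC were also lost under 5 of 12 for Kcnj10, and under 4 of 12 each for Kcng4 and Kcnn4.

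Probes of Kcna6, Kcna7, Kcne1l and Kcnip3 differed in sign in MuSC, and those of Kcna6, Kcna7, Kcnip3 and Kcnj11 did so with TSA. The Kcnj11 probes differed by 2.36 and −0.16 with TSA, and neither was called. Among the genes whose probes differed in sign in MuSC, a probe passed there for 2. The chosen Kcna6 probe differed by −1.47 and was not called, while another differed by 1.69 and passed in the fit of each probe. For Kcne1l the values were −0.48 for the chosen probe, not called, and 1.47 for the other, which passed. Another probe of Kcnd1 was not well above background in MuSC and was at least 3.25-fold lower there (adjusted p 0.00521, limma fit of each probe), while the chosen one differed by −0.67 and was not called.

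The partner proteins of KATP and BK channels were set beside their pores. A list of 20 partners and anchors of potassium channels had 18 tested genes. None was called with TSA in either direction by limma, where 2.71% of all tested genes were higher and 0.268% lower. With 18 genes that is near the background. At an unadjusted p under 0.05, 3 of the 18 were higher and 3 lower. In MuSC 4 were higher (Abcc9, Ank3, Nedd4l and Cav3) and 2 lower (Ank2 and Lrrc55), where 10.5% and 11.7% of all tested genes were, so the lower share is near the background. Abcc9, the sulfonylurea receptor that pairs with Kcnj8, stood at 0.73 and 0.53 with TSA and at 2.16 in MuSC, against −0.02 and −0.20 in Sca1+ cells with vehicle. With TSA the adjusted p was 0.119, and in MuSC the difference was 2.27 with an adjusted p of 0.00521 in limma. Abcc8, the receptor of beta cells, missed the threshold in both comparisons (adjusted p 0.252 with TSA and 0.0563 in MuSC). For BK, the pore gene Kcnma1 was well above background on every array, while Kcnmb1 was so only with TSA and in MuSC.

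**Figure D5:**
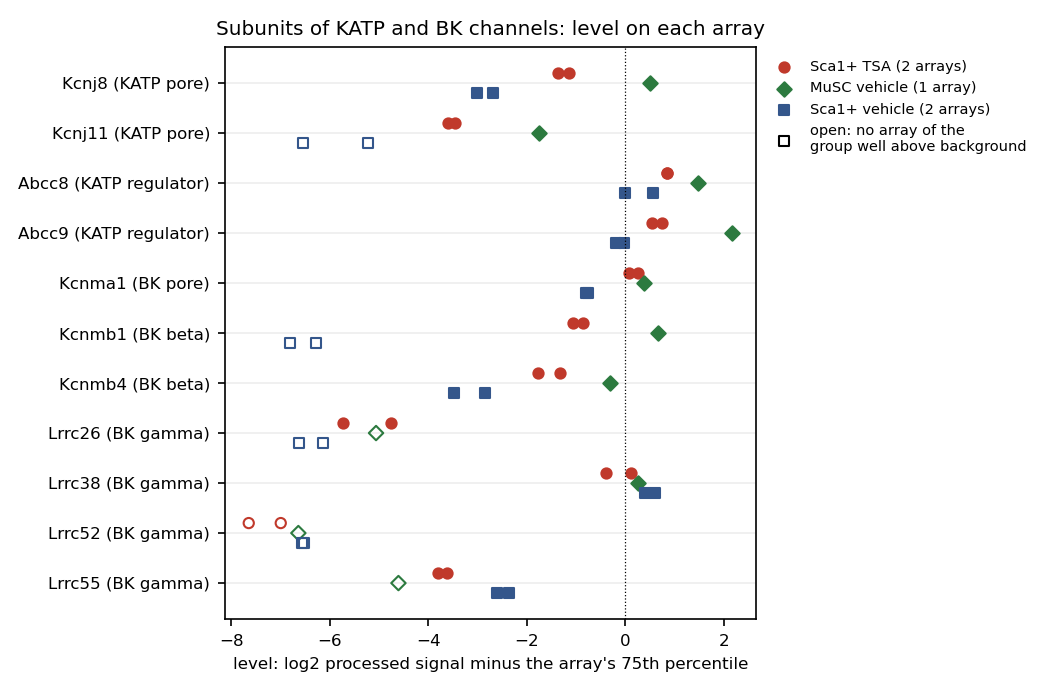
Level on each array (horizontal axis, log2 of the processed signal minus the array's 75th percentile) of pore and partner genes of KATP and BK channels, in Sca1+ cells with TSA (circles), MuSC with vehicle (diamonds) and Sca1+ cells with vehicle (squares). Open symbols mark groups with no array well above background. Kcnmb1 lies at −0.87 and −1.07 with TSA, against −6.82 and −6.29 with vehicle, while Kcnma1 differs by 0.94.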

How the data were processed

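Gene expression was measured on 5 arrays of 1 colour. Per the file headers, Agilent Feature Extraction (10.7.3.1) read the spot intensity, subtracted background and gave the deposited processed signal. The value table the authors deposited holds log2 values, and each column ranks spots as the processed signal does, with column medians of 4.67 to 4.68. The tool that made it is not given in the sources used here.

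Spots marked as outliers (0.196% to 0.334%) and control spots were left out. Spots of 1 probe were averaged on the log2 scale after subtraction of each array's 75th percentile, and each gene was represented by the probe that was brightest on average across arrays. Names came from the scanner files, updated through accessions in a RefSeq table (127 of the 137 probes). The scanner files of slide 2 hold no gene names, so the names of the same probes on slide 1 were used. Probe positions are those of the files, in mm9, and promoters are RefSeq's. A probe of the array design named KCNQ1ot1 in capitals falls outside the rule.

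A moderated linear model (limma 3.58.1, R 4.3.3) took in all 5 arrays in 3 groups. Tests were two-sided with a Benjamini-Hochberg threshold of 0.05, on 2 residual and 2.30 prior degrees of freedom. The fit was also run on simulated data with independent noise and no slide effect or background floor, so that run says nothing of either. Printed errors are standard errors of that model. Named genes were every Kcn gene past the threshold, the largest difference of each subfamily, genes set by name and genes whose probes disagree. Some of these genes are not reported here, and counts include them. The members, gene lists and marker lists were chosen with earlier results of these data known. Slide 1 held the arrays numbered 1, and slide 2 those numbered 2.

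Alternatives were quantile normalization, normexp background correction, the deposited table, no filter on dim probes, the mean of a gene's probes, each probe as a feature, a replicate block, each comparison's own arrays alone and leaving out each Sca1+ array. Some of them repeat a fit. With TSA, the 4 Sca1+ arrays alone give the reported fit. There the deposited table called 878 genes higher and 63 lower, near the 875 and 62 of quantile normalization. For MuSC, the vehicle arrays alone and leaving out either TSA array are the same fit. Counts out of 12 alternatives therefore hold repeats. Normexp used median spot signals with offset 50, since slide 2 holds no mean signals.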

Additional observations from a re-analysis of the deposited data

How the results depend on the processing

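With TSA, 13 Kcn genes were higher and 0 lower by limma. Between 12 and 15 were higher, and 0 lower, under quantile normalization, the authors' deposited table, the mean of a gene's probes, each probe as a feature, the 4 Sca1+ arrays alone and the replicate block (15). Without the filter on dim probes 5 were higher. Normexp gave 11 higher and 18 lower, 29 in all, and turned Kcnn2, which was not called, to −0.59. The cause was not tested. Leaving out 1 array gave between 0 and 7 higher: 0 without either TSA array, where 32 and 25 passed an unadjusted p of 0.05, 7 without vehicle array 1 and 6 without vehicle array 2. An arm with a lone array was assumed to vary like the other groups.

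For MuSC, 22 were higher and 7 lower, 29 in all. The higher count lay between 18 and 24 under every alternative run. The lower count lay between 5 and 8, except for 4 under normexp. With the replicate block it was 22 higher and 8 lower. Deviations of the replicate 1 arrays of TSA and vehicle from their group means correlated at 0.348 over 26090 genes, which with 2 pairs does not settle whether numbers pair samples. Each number is also a slide, so pairing and slide cannot be told apart, and the replicate block is also a slide block. The main fit holds no term for slide. Probes near background give bounds only, and 26 Kcn genes were not well above background on any array.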

Other observations

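A list of 30 other genes of membrane excitability and ion transport had 26 tested members, of which 6 were higher with TSA and 0 lower in limma (2.71% and 0.268% of all tested genes). Ano1, a calcium-activated chloride channel gene of smooth muscle, stood at 2.54 and 2.93 with TSA and 4.40 in MuSC, against −1.51 and −1.62 in Sca1+ cells with vehicle, and the TSA difference was 4.30 ± 0.20 (adjusted p 0.0046). Atp1b2, a beta subunit gene of the sodium pump, stood at 2.93 and 3.11 with TSA and 4.49 in MuSC, against −0.35 and −0.28 with vehicle, and the TSA difference was 3.34 ± 0.16. Cacna1h, a T-type calcium channel gene, stood at 1.83 and 1.76 with TSA and 3.33 in MuSC, against −1.63 and −1.27 with vehicle, and the TSA difference was 3.24 ± 0.19. Cacng1, the gamma subunit gene of the skeletal muscle calcium channel, was not well above background with vehicle and was at least 3.94-fold higher with TSA.

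In MuSC 9 of the 26 were higher and 3 lower than in Sca1+ cells with vehicle, where 10.5% and 11.7% of all tested genes were, so the lower share is near the background. Among the lower ones were Scn7a, an atypical sodium channel gene at −3.61 in MuSC, against 0.13 and −0.19 in Sca1+ cells, and Nalcn, a sodium leak channel gene that was not well above background in MuSC.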
